A study of Mus musculus with 165 samples.

Results

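The 10 genes described here encode the enzymes that write and remove DNA methylation and the core of Polycomb repressive complex 2 (PRC2). They are *Dnmt1*, *Dnmt3a*, *Dnmt3b*, *Tet1*, *Tet2*, *Tet3*, *Ezh1*, *Ezh2*, *Suz12* and *Eed*. They were taken by gene symbol from the table of normalized gene counts, which lists 36255 genes, and each symbol had 1 row. All 10 were among the 17414 genes that reached a normalized count of 5 in at least 1 library and were tested.

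*Dnmt1* encodes the maintenance DNA methyltransferase, which copies methylated cytosines to the new strand after replication, while *Dnmt3a* and *Dnmt3b* encode the de novo methyltransferases that place new marks. The Tet enzymes oxidise 5-methylcytosine, which starts its removal. PRC2 methylates lysine 27 of histone H3 through *Ezh1* or *Ezh2*, its alternative catalytic subunits, and needs *Suz12* as a scaffold and *Eed*, which binds the mark, for its activity. Several of these genes, among them *Dnmt3a*, *Tet2* and *Ezh2*, are recurrently mutated in myeloid disease, and *Dnmt1* and *Ezh2* are known as genes of dividing cells.

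The data are RNA-seq of PUER cells, a mouse line labelled as bone marrow-derived progenitors of genotype Spi1-/-, in which PU.1, the product of *Spi1*, is supplied as a fusion to an estrogen receptor and is activated by 4-hydroxy-tamoxifen (OHT). The libraries fall into 56 groups. Undifferentiated cells (3 libraries) were kept in 5 ng/ml IL3 without OHT. GCSF 0h cells (3 libraries) had IL3 replaced by 10 ng/ml GCSF for 48 h, again without OHT. IL3-OHT cells stayed in IL3 and received 200 nM OHT, which directs them toward macrophages, and GCSF-OHT cells received 100 nM OHT after the 48 h in GCSF, which directs them toward neutrophils. Both were sampled at 27 times from 1 h to 168 h, with 81 IL3-OHT libraries and 78 GCSF-OHT libraries. The Spi1-/- genotype and the fusion are shared by all groups, so no group is a wild-type control. Cytokine, OHT dose and the 48 h pre-treatment changed together and cannot be told apart. Each time point had its own plate, so time and plate cannot be told apart either, and fresh medium with OHT was given at 40 h, 88 h and 136 h. Trypsin was used to detach cells at times after 24 h only, so comparisons of later with earlier times also differ in this step. The study calls the replicates biological, while the labels number them without naming separate cultures, so p-values measure the spread between these libraries.

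The libraries held between 14600246 and 33147945 reads assigned to genes, with a median of 21960878, and a count of 3 reads, the floor used here, equals a normalized count of 1.96 to 5.51. The summed level of 10 macrophage markers was 5899 to 6143 in undifferentiated cells, 20613 to 23707 in IL3-OHT 168h and 13900 to 15537 in GCSF-OHT 168h. That of 10 neutrophil markers was 298396 to 304717, 257766 to 290449 and 735320 to 782493 in the same groups, and that of 5 progenitor markers 11252 to 12518, 2805 to 3067 and 2822 to 2953. The B cell markers *Ms4a1*, *Pax5* and *Ebf1* and 5 of 6 T cell markers never passed 3 reads. IL3-OHT 96h and 144h, which the study excluded, entered no test here except their own, and 1 deep library, GCSF-OHT 104h replicate 3, stood apart (*Tet3* at 2087 against 3624 and 3972 in the other 2). In these bulk samples, fewer cells of a type and less RNA per cell cannot be told apart.

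All 10 genes were matched by symbol to the GENCODE annotation of the mouse GRCm38 build. *Dnmt1* lies on chromosome 9 from 20907209 to 20959888 on the minus strand and *Ezh2* on chromosome 6 from 47530139 to 47595341 on the minus strand. *Dnmt3a* lies on chromosome 12 (3806007 to 3914443), *Dnmt3b* on chromosome 2 (153649450 to 153687730), *Suz12* on chromosome 11 (79993106 to 80034123), all 3 on the plus strand. *Tet1* lies on chromosome 10 (62804570 to 62908996), *Tet2* on chromosome 3 (133463679 to 133545139), *Tet3* on chromosome 6 (83362373 to 83459084), *Ezh1* on chromosome 11 (101191115 to 101226463) and *Eed* on chromosome 7 (89954654 to 89980983), all on the minus strand.

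*Dnmt1* and *Ezh2* differed most of the 10 between the 2 cytokines and followed the levels of DNA replication genes. The start regions of the 10 genes were searched for letters of the E2F type, which are common at the starts of replication genes. Whether such letters bear on the levels was not tested. RefSeq gives 14 windows for the 10 genes, each from 250 bases before to 50 bases after a transcription start. The motifs searched on both strands were TTTCGCGC, TTTGGCGC and GGCGGGAA, and the PU.1-type GAGGAAGT. Matches lay in 1 window of *Dnmt1* and 1 window of *Ezh2* and are shown as 30-base stretches of the minus strand, 5′ to 3′, with the match in capitals.
Dnmt1, chr9:20952824-20952853: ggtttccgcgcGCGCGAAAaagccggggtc
Dnmt1, chr9:20952574-20952603: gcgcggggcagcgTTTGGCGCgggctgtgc
Ezh2, chr6:47595009-47595038: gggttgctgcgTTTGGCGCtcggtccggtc
The first is TTTCGCGC read on the other strand and begins at position -219 from the RefSeq start, within an annotated UTR exon of a longer *Dnmt1* transcript. The second *Dnmt1* match begins at position 34 and the *Ezh2* match at position 4, counting the start as 1, both in annotated UTR exons. At least 1 of the 3 E2F-type motifs was found in 2.96% of all 32851 windows and in 4.82% of the 14706 windows of tested genes. GAGGAAGT, which was found in 3.20% of all windows, matched in none of the 14. A match is a description of letters and not of a bound site, and the lack of one says only that these letters are not in the window. Other spellings of the E2F type were not searched. The *Suz12* window, for example, holds TTTCCCGC, which is close to TTTCGCGC, so the matches do not set *Dnmt1* and *Ezh2* apart.

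Levels between genes are compared per kilobase of the longest coding transcript. In undifferentiated cells *Eed* was highest at 546 ± 5.87 normalized counts per kb (SD, n = 3), followed by *Suz12* at 439 ± 22.5. *Dnmt1* at 309 ± 8.07 and *Ezh1* at 300 ± 3.19 overlapped, and so did *Tet3* at 263 ± 16.4 and *Ezh2* at 259 ± 25.5. Lower levels were found for *Dnmt3a* at 204.1 ± 4.75 and *Tet2* at 141.6 ± 8.97. *Dnmt3b* at 17.97 ± 2.13 and *Tet1* at 0.306 ± 0.144 were far below the others, so that *Tet3* and *Tet2* carried nearly all Tet reads and *Dnmt3a* most de novo methyltransferase reads. The order among the upper 7 depends on the length used. With the length of all exons *Suz12* (388) came before *Eed* (295), and *Dnmt3a* (119) came before *Ezh2*. After 48 h in GCSF *Dnmt1* was the highest of the 10 per kb with either length, at 1100 with the longest transcript, while *Tet1* and *Dnmt3b* stayed at the end of the order in undifferentiated, GCSF 0h, IL3-OHT 168h and GCSF-OHT 168h cells.

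**Figure D1:**
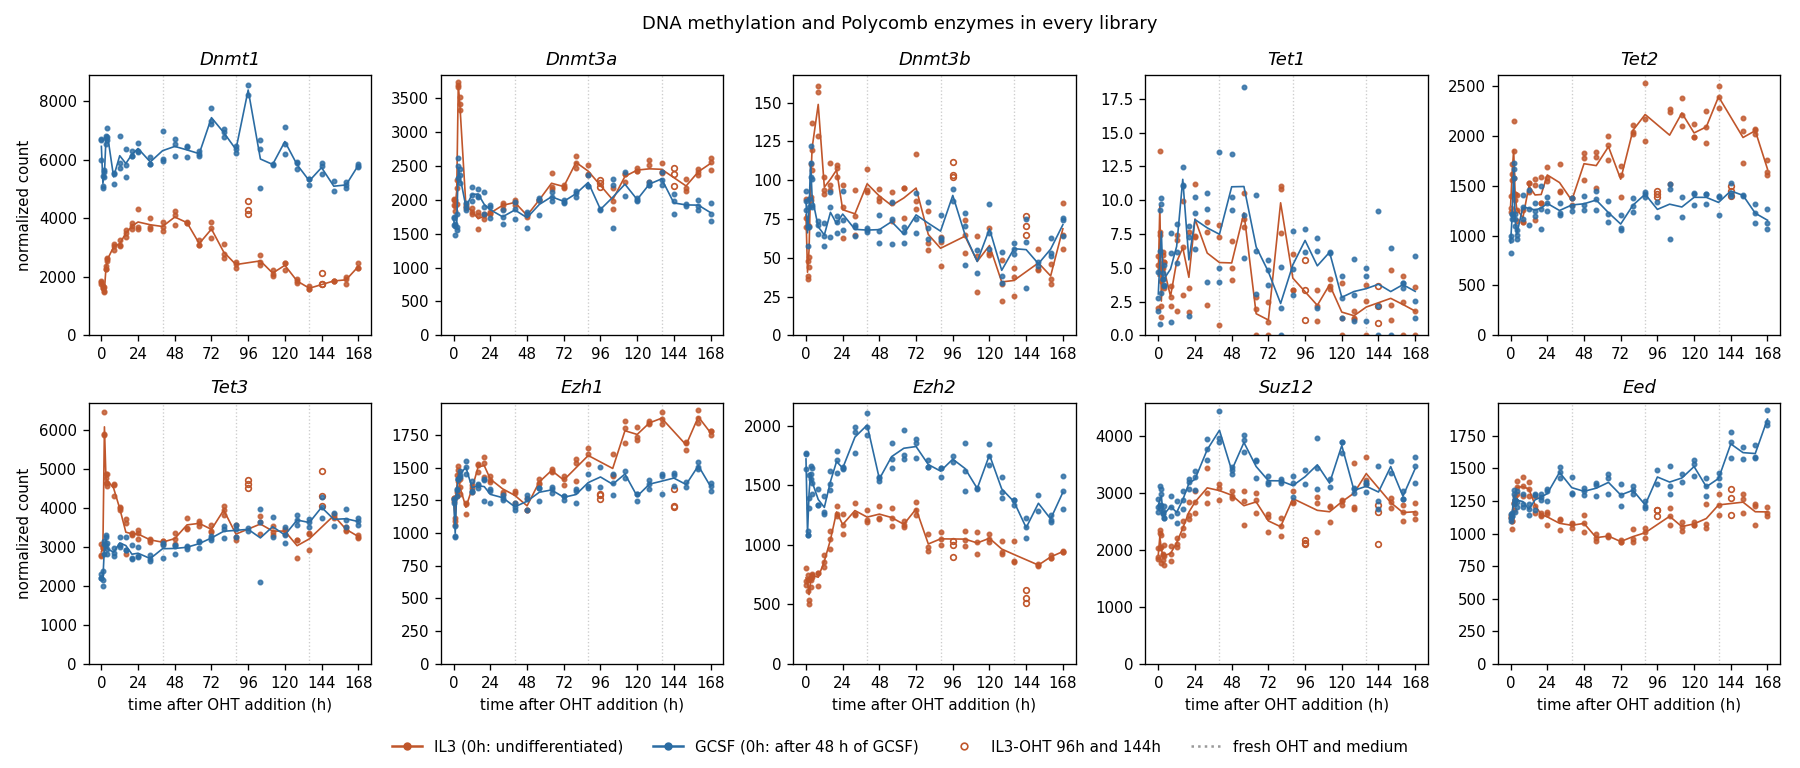
Normalized count (vertical axis, 1 panel per gene) against hours after OHT (horizontal axis) for the 10 genes, with IL3-OHT and GCSF-OHT in separate colours, points for single libraries and lines through the group means. Open circles mark IL3-OHT 96h and 144h, and dotted lines the times of fresh OHT and medium. The GCSF libraries of *Dnmt1* and *Ezh2* lie above the IL3 libraries at every time tested, while *Tet1* stays near the floor in both.

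Replacing IL3 by GCSF for 48 h, before any OHT, was followed by a rise of *Dnmt1* and *Ezh2*, 2 of the 10 genes. Across all genes tested 33.7% were called in this comparison, by limma's moderated test at an adjusted p under 0.05 and a log2 fold change beyond 0.58 in either direction. The median log2 difference of the 10 genes was -0.01 and that of all genes -0.09. *Dnmt1* stood at normalized counts of 1848, 1837 and 1761 in the undifferentiated libraries and at 5991, 6656 and 6717 in the GCSF 0h libraries. The groups were far apart, with a log2 fold change of 1.83 (SE 0.06, adjusted p = 2.67e-54). *Ezh2* stood at 665, 699 and 801 and then at 1632, 1758 and 1769. Its libraries did not overlap either, with a log2 fold change of 1.26 (SE 0.07, adjusted p = 2.65e-31). The other catalytic subunit, *Ezh1*, had 1272, 1248 and 1270 against 1258, 1259 and 1228, so of the catalytic genes of PRC2 *Ezh2* rose past *Ezh1* in normalized count while *Ezh1* overlapped. *Suz12* was higher without overlap (1848, 1879 and 2031 against 2675, 2903 and 2765) but stayed below the fold threshold at a log2 difference of 0.54, and *Eed* overlapped (1124, 1120 and 1143 against 1147, 1097 and 1122). *Tet2*, an eraser of methylation, was lower in every GCSF library (1392, 1274 and 1234 against 996, 956 and 829, log2 difference -0.49), again below the threshold. In the same libraries 15 of 16 genes of DNA replication and mitosis rose (median log2 difference 1.53), with a summed level of 23866 to 25196 in undifferentiated and 60692 to 67274 in GCSF 0h cells. The summed level of the macrophage markers was 5899 to 6143 and then 1285 to 1712 (2 of 10 rose and 8 fell), that of the progenitor markers 11252 to 12518 and then 5844 to 6462 (3 of 5 fell), and that of the neutrophil markers 298396 to 304717 and then 406272 to 456469 (6 of 10 rose and 1 fell). The part of these genes in the result was not tested.

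**Figure D2:**
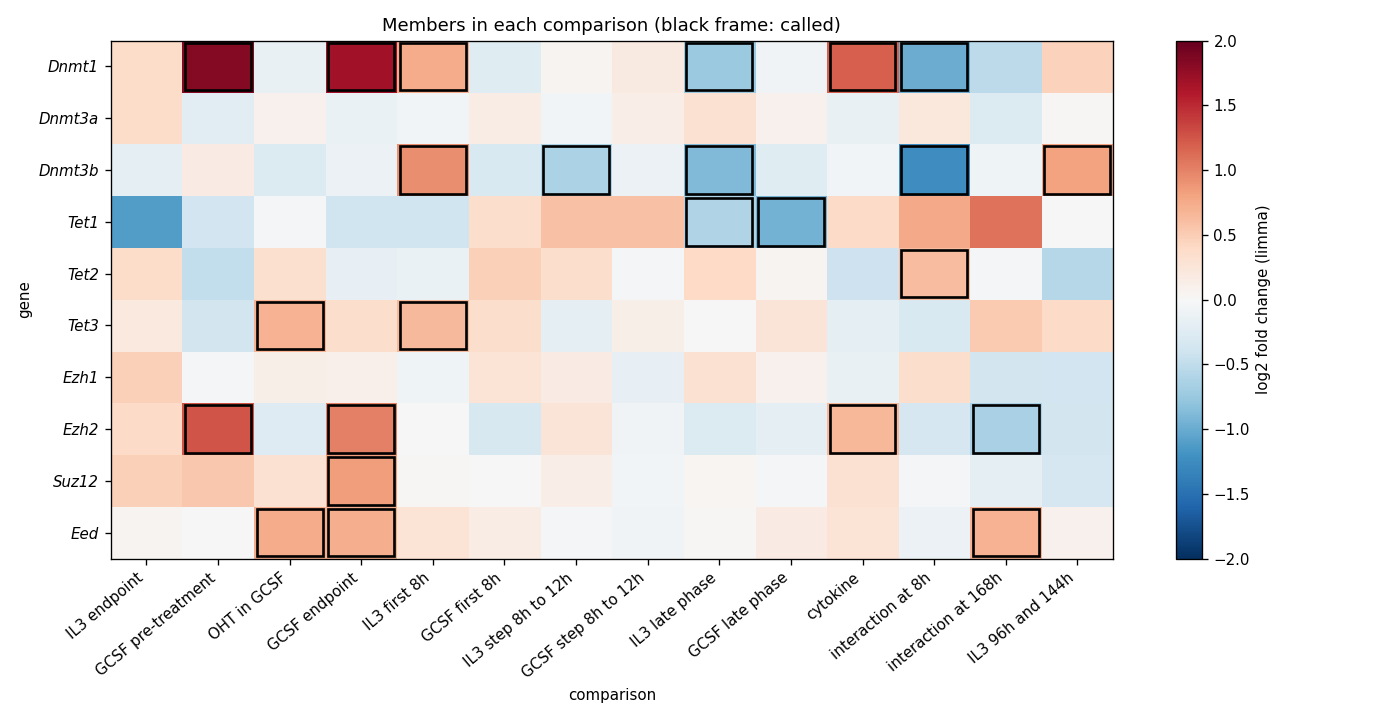
Log2 fold change (colour scale) of each of the 10 genes (rows) in the comparisons between groups (columns), with called values in black frames. *Dnmt1* and *Ezh2* are called in the GCSF pre-treatment, the GCSF endpoint and the cytokine comparison, and no gene is called in the IL3 endpoint.

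The gap opened before OHT persisted over the whole course. Over the 25 times tested in both cytokines, 2 of the 10 genes were called between GCSF-OHT and IL3-OHT, beside 24.5% of all genes, and both were higher in GCSF. *Dnmt1* ranged from 1474 to 4304 (median 2631) in 75 IL3-OHT libraries and from 4925 to 7771 (median 6110) in 73 GCSF-OHT libraries. There was no overlap at all, also across different times, with a log2 difference of 1.19 (SE 0.01, adjusted p = 3.21e-109). *Ezh2* ranged from 503 to 1357 (median 1020) and from 1080 to 2107 (median 1573), with a log2 difference of 0.66 (SE 0.02, adjusted p = 4.58e-72). Its libraries overlapped across times but were higher in GCSF at each of the 25 times. Below the threshold, every GCSF library of *Suz12* was higher at 22 times and of *Eed* at 19 times, while every GCSF library of *Tet2* was lower at 18 times and of *Ezh1* at 18 times. *Dnmt3b* overlapped at 14 times and *Tet1* at 18. Of the 16 replication and mitosis genes 15 were higher in GCSF, with a median log2 difference of 1.14, and their part in the result was not tested.

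Across the 54 groups used for testing, the mean level of *Dnmt1* followed the mean of the 16 replication and mitosis genes with r = 0.936, and that of *Ezh2* with r = 0.844. Groups of 1 cytokine share that cytokine and its medium changes and follow each other in time, so these are descriptions and carry no test. *Suz12* had r = 0.536, *Tet1* 0.445, *Dnmt3b* 0.348 and *Eed* 0.347, while *Dnmt3a* (-0.516), *Ezh1* (-0.651), *Tet2* (-0.750) and *Tet3* (-0.461) ran the other way. Within the 10 genes the closest pair was *Dnmt1* and *Ezh2* (r = 0.895), *Ezh2* and *Suz12* had r = 0.814, and *Dnmt1* and *Tet2* had r = -0.742. By the sign of r with the replication and mitosis genes, *Dnmt1* and *Ezh2* thus fell on one side and *Tet2*, *Tet3*, *Ezh1* and *Dnmt3a* on the other. Between members the split was weaker for some pairs. *Ezh1* and *Ezh2* had r = -0.256, *Dnmt3a* and *Ezh2* -0.402, and *Dnmt3a* and *Tet2*, on the same side, 0.310. The genes whose group means were most like *Dnmt1* were *Chaf1a* (r = 0.981), a subunit of a chromatin assembly factor that acts at replication forks, *Ddx11* (0.973), a DNA helicase, and *Tfdp1* (0.972), the dimer partner of E2F factors. For *Ezh2* they were *Tnfaip8* (0.959), *Esco2* (0.957), a cohesin acetyltransferase of S phase, and *Atad2* (0.957). For *Dnmt3b* they were *Gemin5* (0.926), *Tcof1* (0.899) and *Gemin4* (0.890), for *Eed* *Morc3* (0.935), for *Suz12* *Pcm1* (0.930), for *Tet2* *Lpin1* (0.903), for *Ezh1* *Ubxn7* (0.848), for *Tet3* *Rab22a* (0.828), for *Dnmt3a* *Prrc2b* (0.766) and for *Tet1* *Copg1* (0.617), each over 54 groups.

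**Figure D3:**
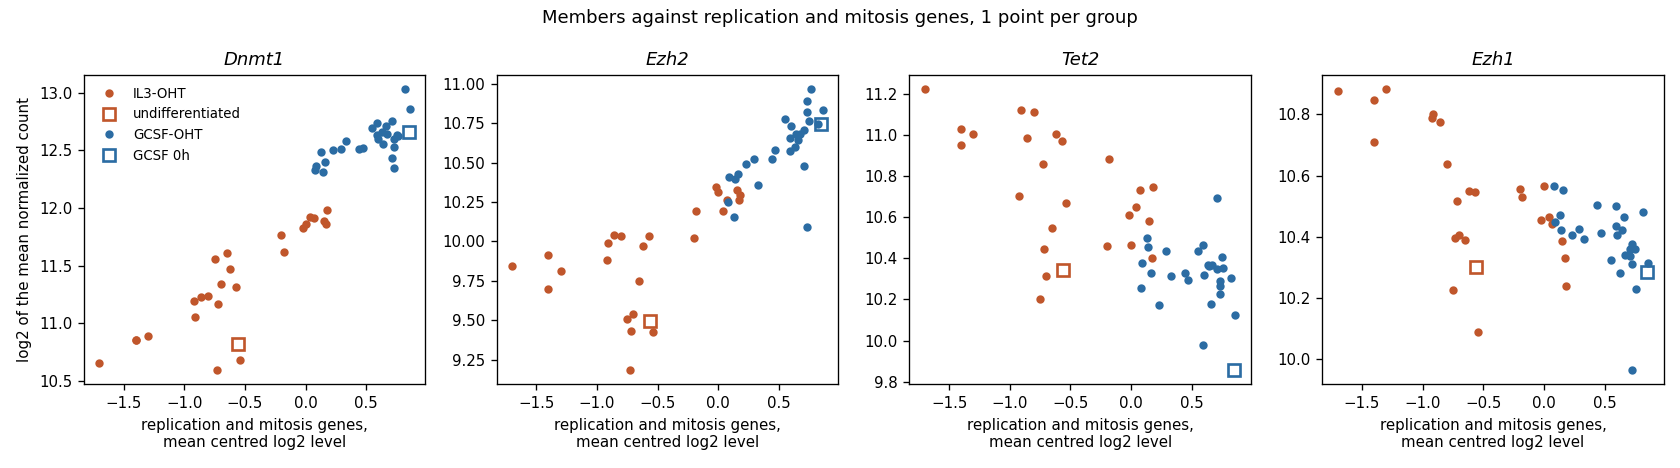
Log2 of the mean normalized count of *Dnmt1*, *Ezh2*, *Tet2* and *Ezh1* (vertical axes) against the mean log2 level of 16 replication and mitosis genes (horizontal axis, centred), 1 point per group, a colour per cytokine and open squares for undifferentiated and GCSF 0h cells. The 54 points of *Dnmt1* (r = 0.936) and *Ezh2* (r = 0.844) rise from left to right, with most IL3 points at the lower left.

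In the first 8 h of OHT in IL3, 3 of the 10 genes rose, *Dnmt1*, *Dnmt3b* and *Tet3*, beside 29.7% of all genes called. The median log2 difference of the 10 was 0.01 and of all genes -0.08. Before OHT *Tet3* had 3077, 2778 and 2758, followed by 2979, 2972 and 3017 at 1 h, 5871, 6455 and 5894 at 2 h, then 4620, 4300 and 4590 at 8 h. It was thus near its start at 1 h, highest of the course at 2 h, and still higher at 8 h (log2 fold change 0.65, SE 0.08, adjusted p = 3.95e-12). Before OHT *Dnmt3a* had 2014, 1990 and 1925, followed by 3730, 3660 and 3696 at 3 h, 3328, 3412 and 3512 at 4 h, then 1901, 1883 and 1931 at 8 h. Its peak came an hour after that of *Tet3* and had passed by 8 h, when its libraries overlapped those at the start. *Dnmt1* was lowest at 2 h (1474, 1647 and 1516) and reached 3041, 2905 and 3124 at 8 h (log2 fold change 0.74, SE 0.06, adjusted p = 1.80e-21). *Dnmt3b*, at far lower counts, had 87.7, 69.6 and 75.6 before OHT, 38.4, 47.6 and 36.1 at 1 h and 161.0, 128.5 and 157.1 at 8 h. Its libraries were below the start at 1 h and above it at 8 h (log2 fold change 0.93, SE 0.21, adjusted p = 5.59e-05). Of the 16 replication and mitosis genes 3 were called lower and 0 higher over these 8 h, with a median log2 difference of -0.18. Their summed level, in which the highest genes weigh most, was 21009 to 21633 at 8 h against 23866 to 25196 before OHT. They did not move together. *Mki67* (mean 3545, then 2530) and *Pcna* (4041, then 2809) were lower at 8 h. *Mcm2* (1402, then 1686), *Mcm5* (1594, then 1858) and *Tyms* (218, then 320) were higher without overlap, as *Dnmt1* was. From 8 h to 12 h *Dnmt3b* fell by 0.63 on the log2 scale, to 93.5, 101.9 and 91.1 (SE 0.21, adjusted p = 0.0142), as 1 of 10 members beside 6.31% of all genes. This call was lost without replicate 1 (adjusted p = 0.122) or replicate 3 (0.183).

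In GCSF none of the 10 genes was called over the first 8 h of OHT with limma, edgeR or DESeq2, beside 9.40% of all genes with limma. At an unadjusted p under 0.05 each of the 3 tools had 7 of the 10, beside 6795 of all 17414 genes with limma. With limma 6 of the 10 also had an adjusted p under 0.05, with differences below the fold threshold. *Tet3* was higher at 3 h (3054, 3306 and 3249) than at GCSF 0h (2306, 2197 and 2211), and so was *Dnmt3a* (2319, 2502 and 2614 against 1729, 1751 and 1635). For *Dnmt3a* 3 h was the highest of the GCSF course, at a smaller log2 distance from the start (0.54) than in IL3 (0.90). *Tet3* had no early maximum in GCSF and was highest at 144 h (4013 ± 275, SD, n = 3). *Tet2*, which had 996, 956 and 829 in GCSF 0h, reached 1579, 1669 and 1726 at 2 h, followed by 1403, 1284 and 1165 at 8 h. Its level at 2 h was the highest of the GCSF course. *Dnmt1* had 5546, 5519 and 5182 at 8 h, below the 5991, 6656 and 6717 of GCSF 0h, and 10 of the 16 replication and mitosis genes fell over the same hours. The change over 8 h differed between the cytokines for 3 of the 10 genes by an interaction term, beside 27.4% of all genes. It was lower in GCSF for *Dnmt1* (-0.99 on the log2 scale, SE 0.08, adjusted p = 9.36e-20) and *Dnmt3b* (-1.24, SE 0.29, adjusted p = 0.000194) and higher for *Tet2* (0.61, SE 0.15, adjusted p = 0.000265). From 8 h to 12 h in GCSF none of the 10 was called by limma, edgeR or DESeq2, beside 2.67% of all genes with limma. At an unadjusted p under 0.05 each tool had 3, beside 4569 of all 17414 genes with limma. With limma 2 had an adjusted p under 0.05, with differences below the fold threshold.

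**Figure D4:**
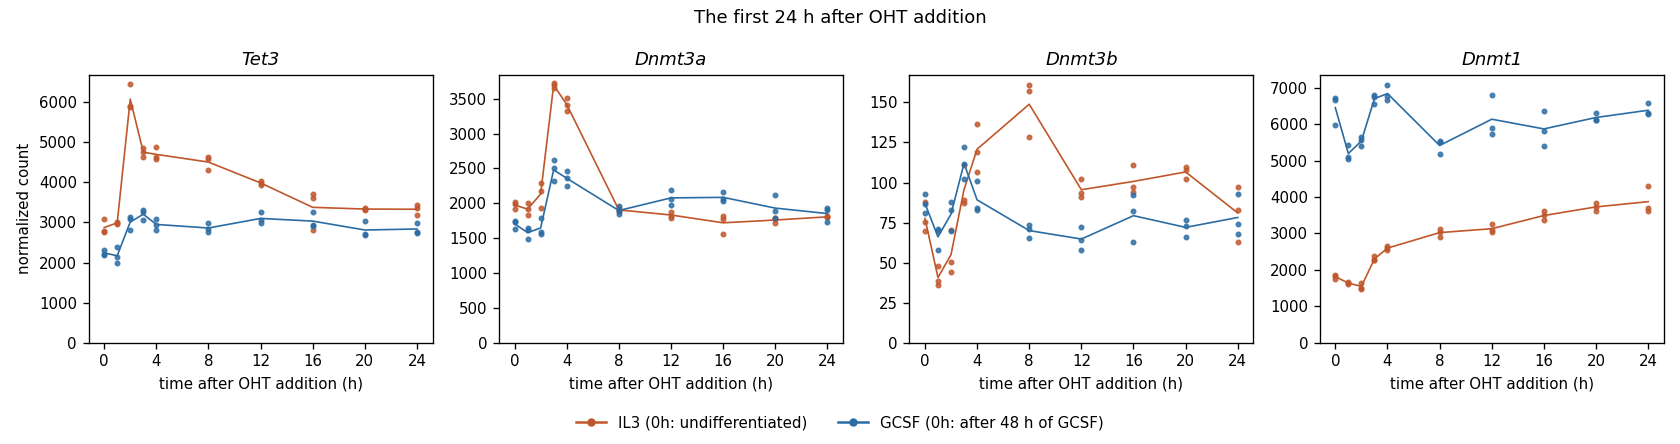
Normalized count (vertical axes) over the first 24 h after OHT addition (horizontal axes, hours) for *Tet3*, *Dnmt3a*, *Dnmt3b* and *Dnmt1*, with a point per library and lines through the group means, IL3 and GCSF in separate colours. In IL3, *Tet3* is highest at 2 h, *Dnmt3a* at 3 h and *Dnmt3b* at 8 h.

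Between 12 to 72 h and 80 to 168 h in IL3, 3 of the 10 genes fell, *Dnmt1*, *Dnmt3b* and *Tet1*, beside 20.5% of all genes called, with a median of 0.02 for the 10 and -0.02 for all genes. *Dnmt1* had a median of 3684 (3045 to 4304) in the 30 earlier libraries and of 2240 (1571 to 3137) in the 30 later ones. Between the windows it fell by 0.75 on the log2 scale (SE 0.02, adjusted p = 2.81e-66). Its maximum, 4043 ± 250 (SD, n = 3), was at 48 h, within the earlier window. *Dnmt3b* had a median of 93.5 (63.1 to 117.1) and then of 52.2 (22.03 to 85.5) and fell by 0.88 (SE 0.07, adjusted p = 2.91e-24). All 16 replication and mitosis genes fell in the same comparison (median -0.93), and their part in the result was not tested. Members that were not called lay higher later, among them *Tet2* (median 1552, then 2079), *Dnmt3a* (1872, then 2407) and *Ezh1* (1395, then 1742), while *Ezh2* went from 1223 to 966. *Tet2* reached its maximum of 2391 ± 112 at 136 h and *Ezh1* its maximum of 1889 ± 50.7 at 160 h (SD, n = 3), with *Tet2* at 2.03 times and *Ezh1* at 1.73 times its lowest group. In GCSF only *Tet1* was called between the same windows (-0.94, SE 0.20, adjusted p = 1.28e-05), beside 12.0% of all genes, and its counts are near the floor. *Dnmt1* there had a median of 6234 and then of 5869, and the 16 replication and mitosis genes had a median log2 difference of -0.25.

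At 168 h in IL3 none of the 10 genes was called against undifferentiated cells by limma, edgeR or DESeq2, beside 25.4% of all genes with limma. At an unadjusted p under 0.05 there were 7 with each of the 3 tools, beside 9580 of all 17414 genes with limma. With limma 7 of the 10 had an adjusted p under 0.05. *Dnmt1*, at 2457, 2301 and 2291, was still above the start in each library, and *Ezh1*, at 1777, 1777 and 1747, was above its 1272, 1248 and 1270. *Suz12* (2540, 2825 and 2657) and *Ezh2* (939, 951 and 938) were above their starts in each library too. The differences were below the fold threshold, and the median of the 10 was 0.36 against -0.03 for all genes. *Dnmt1* and *Tet3*, at 3255, 3238 and 3299, were thus closer to the start than at their maxima.

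At 168 h of OHT in GCSF 2 of the 10 genes were higher than in GCSF 0h, *Tet3* and *Eed*, beside 24.8% of all genes called. *Eed* had 1147, 1097 and 1122 in GCSF 0h and 1833, 1949 and 1853 at 168 h. It was the highest of its course at 168 h and rose by a log2 fold change of 0.74 (SE 0.05, adjusted p = 8.85e-26). *Tet3* had 2306, 2197 and 2211 and then 3728, 3551 and 3662 (log2 fold change 0.70, SE 0.08, adjusted p = 1.51e-13). *Dnmt1* (5862, 5758 and 5796) and *Ezh2* (1447, 1573 and 1300) were below GCSF 0h in each library and were not called, whereas 9 of the 16 replication and mitosis genes fell. Against undifferentiated cells, which differ in cytokine as well, 4 of the 10 were higher, beside 39.1% of all genes. They were *Dnmt1* (1.68, SE 0.06, adjusted p = 5.08e-51), *Ezh2* (1.00, SE 0.07, adjusted p = 5.07e-24), *Suz12* (0.84, SE 0.08, adjusted p = 2.01e-18) and *Eed* (0.73, SE 0.05, adjusted p = 1.06e-25), so 3 of the 4 PRC2 core genes were higher and *Ezh1* was not called. *Suz12* had 3486, 3634 and 3179 in GCSF-OHT 168h. The 2 comparisons share the GCSF-OHT 168h libraries, and the comparison with undifferentiated cells shares its controls with those above. The change over 168 h differed between the cytokines for *Eed* (0.70 on the log2 scale, higher in GCSF, SE 0.07, adjusted p = 8.42e-15) and *Ezh2* (-0.65, lower in GCSF, SE 0.11, adjusted p = 7.91e-08), 2 of 10 beside 25.7% of all genes.

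The ratio of the transcript levels of the catalytic subunits of PRC2 also differed between the cytokines, while protein was not measured. Ratios here are of counts not corrected for length, so their sign does not say which gene was higher per kb. In GCSF-OHT 168h *Ezh2* had 517 and *Ezh1* 322 per kb of the longest coding transcript. The log2 ratio of *Ezh1* to *Ezh2* within a library was 0.81 ± 0.14 in undifferentiated cells, -0.46 ± 0.08 in GCSF 0h, 0.91 ± 0.01 in IL3-OHT 168h and -0.08 ± 0.17 in GCSF-OHT 168h (SD, n = 3 each). The ratio was lower by 1.27 after 48 h in GCSF, and this and the difference of 0.38 between GCSF-OHT 168h and GCSF 0h had p = 0.10 by a two-sided exact permutation test, which is the smallest p that 3 against 3 libraries can give. In IL3 the difference over 168 h was 0.09 (SE 0.08). At 72 h, the time of the *Ezh2* maximum in IL3 (1300 ± 53.3, SD, n = 3), the ratio there was 0.11 ± 0.09, so it had moved and moved back. The log2 ratio of *Dnmt3a* to *Dnmt1* was 0.12 ± 0.01, -1.92 ± 0.12 and 0.11 ± 0.04 in undifferentiated, GCSF 0h and IL3-OHT 168h cells. It was -0.72 ± 0.12 in IL3-OHT 72h (SD, n = 3 each). It was lower by 2.04 after 48 h in GCSF (exact permutation p = 0.10), and the difference over 168 h in IL3 was -0.01 (SE 0.02).

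**Figure D5:**
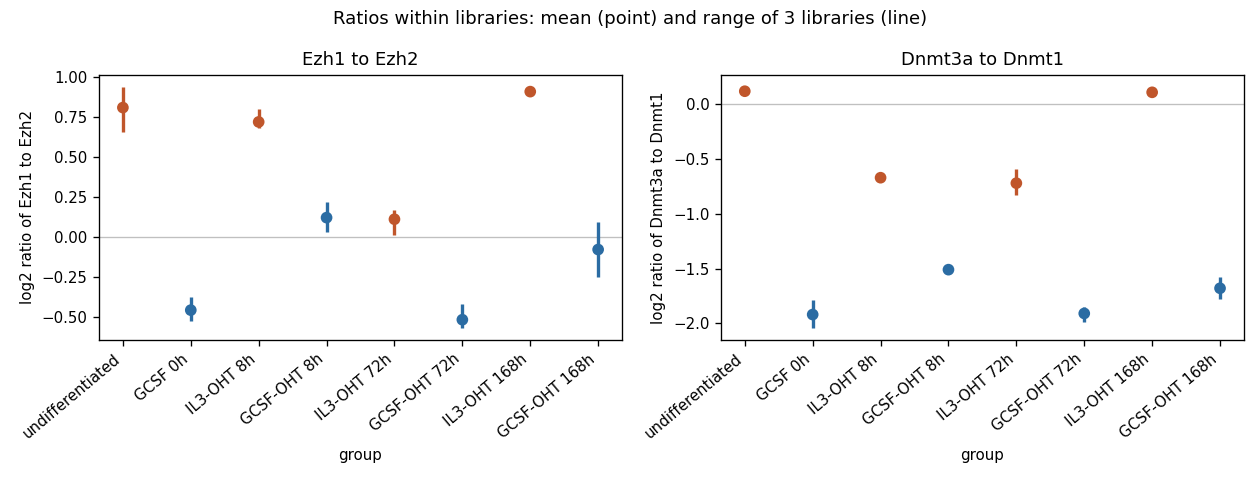
Log2 ratio within a library (vertical axes) of *Ezh1* to *Ezh2* and of *Dnmt3a* to *Dnmt1* in 8 groups (horizontal axis), as the mean (point) and the range of 3 libraries (line), with a colour per cytokine. In both panels GCSF 0h lies below undifferentiated cells, and IL3-OHT 168h lies at the undifferentiated level.

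Tested for any change over the IL3 course, 8 of the 10 genes were called by limma, beside 69.7% of all genes. The largest departures from undifferentiated cells were 1.15 for *Dnmt1* at 48 h, 1.08 for *Tet3* at 2 h, 0.90 for *Dnmt3a* at 3 h, 0.88 for *Tet2* at 136 h, 0.85 for *Ezh2* at 72 h and 0.80 for *Suz12* at 136 h on the log2 scale, and -1.21 for *Dnmt3b* at 128 h and -1.42 for *Tet1* at 72 h. *Ezh1* reached 0.58 at 160 h, just short of the threshold (0.59 and called with edgeR), and *Eed* 0.27 at 8 h, so *Eed* was the steadiest of the 10 in IL3. Over the GCSF course 6 of the 10 were called by limma, beside 47.7% of all genes, and 5 by edgeR, which left out *Tet1*. The departures from GCSF 0h were 0.84 for *Tet2* at 2 h, 0.84 for *Tet3* at 144 h, 0.74 for *Eed* at 168 h, 1.69 for *Tet1* at 16 h, -1.06 for *Dnmt3b* at 128 h and -0.65 for *Ezh2* at 1 h. *Dnmt1*, whose level was the most different between the cytokines, was not called within the GCSF course, with a largest departure of 0.38 at 96 h. *Dnmt3b* was lowest at 128 h in both cytokines, at 34.5 ± 13.2 in IL3 and 42.0 ± 10.7 in GCSF (SD, n = 3 each).

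*Tet1* was at or under 3 reads in 40 of the 78 libraries of the IL3 course and in 21 of the 81 of the GCSF course, and its highest normalized count was 18.4. Undifferentiated libraries had 5.23, 2.05 and 5.91 and GCSF 0h libraries 2.77, 1.77 and 4.66. At this depth its calls rest on a few reads per library, and the GCSF time course call of *Tet1* (adjusted p = 0.0293) was lost without any 1 of the replicates. Its fall in the late phase in IL3 (-0.60, SE 0.20, adjusted p = 0.00513) was lost without replicate 3 (adjusted p = 0.0912), and without replicate 2 it was smaller than the fold threshold (-0.55).

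IL3-OHT 96h and 144h, set against the times on either side of each, had 1 of 10 members called by limma beside 18% of all genes, *Dnmt3b* (log2 difference 0.81, SE 0.13, adjusted p = 9.78e-09). *Dnmt3b* had 101.9, 103.2 and 111.9 at 96 h. *Dnmt1* had 4276, 4586 and 4150 at 96 h, near its level at 48 h, against 2731, 2403 and 2501 at 104 h. At 144 h its mean of 1888 was close to the 1859 at 152 h. *Ezh2* had 622, 552 and 509 at 144 h against 859, 1035 and 860 at 136 h, whereas its mean at 96 h, 976, was near the 1049 at 88 h and 1047 at 104 h. *Dnmt3a* (log2 difference 0.02), *Tet1* (0.01) and *Eed* (0.08) lay near the neighbouring times. With edgeR and DESeq2 2 of 10 members were called, so the share of members was near that of all genes. No other test above includes these libraries.

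Other genes of these pathways were counted from lists of 9 PRC2 partners, 21 subunits of Polycomb repressive complex 1 (PRC1), 6 genes that remove Polycomb marks, 14 cofactors and readers of DNA methylation and 10 partners of the Tet enzymes or of base excision. Of the 6, *Asxl3* never passed 3 reads and 5 were tested. After 48 h in GCSF 4 of the 14 methylation cofactors rose and 1 fell, a share near the 33.7% of all genes called. *Uhrf1*, which brings *Dnmt1* to hemimethylated DNA, went from 1173 ± 25.2 to 3994 ± 123.3 normalized counts (SD, n = 3, log2 fold change 1.77, SE 0.06, adjusted p = 4.74e-51). *Hells*, a remodeller needed for DNA methylation, rose by a log2 fold change of 1.35 and *Mbd4*, a glycosylase that reads methylated sites, by 1.51. *Uhrf1* (1.17), *Hells* (0.84) and *Mbd4* (0.65) were also the 3 of 14 called between the cytokines, beside 24.5% of all genes. In the late phase in IL3 3 of 14 were called, beside 20.5% of all genes. There *Uhrf1* (-1.18) and *Hells* (-1.06) fell and 1 other rose. Both shares were near those of all genes. *Uhrf1* and *Hells* changed in the same direction as *Dnmt1* in all 3 comparisons. In the first 8 h in GCSF *Uhrf1* fell by 0.99.

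Of the 9 PRC2 partners 1 was called after 48 h in GCSF, beside 33.7% of all genes: *Phf19* (1.23), which links PRC2 to chromatin. In the first 8 h in IL3, 3 of the 9 fell, *Jarid2* (-0.88), *Mtf2* (-0.66) and *Phf1* (-0.61), accessory subunits that guide PRC2, a share near the 29.7% of all genes called. *Jarid2* went from 3215 ± 98.8 to 1742 ± 35.9 (SD, n = 3). *Epop*, another accessory subunit, fell over 168 h in both IL3 (-1.62) and GCSF (-2.57), from 817 ± 46.3 in undifferentiated cells to 267 ± 31.9 and from 693 ± 4.32 in GCSF 0h to 116.3 ± 5.77.

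Of the 21 PRC1 subunits 10 were called at 168 h in IL3, 7 of them higher, beside 25.4% of all genes, with a median of 0.43 against -0.03 for all genes. *Cbx2*, a reader of the PRC2 mark, went from 211.3 ± 21.5 to 810 ± 42.3 (log2 fold change 1.94, SE 0.10, adjusted p = 1.82e-34). *Phc1*, another PRC1 subunit, was higher in GCSF than in IL3 over the shared times (log2 difference 2.20). It was the only one of the 21 called between the cytokines by limma, beside 24.5% of all genes. After 48 h in GCSF 5 of the 21 were called, among them *Phc1* (1.76) and *Rybp* (-0.91), a share below the 33.7% of all genes.

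*Kdm6b*, a demethylase that removes the PRC2 mark, had 3188 ± 200 normalized counts in undifferentiated cells, 934 ± 76.6 in GCSF 0h and 1179 ± 39 in IL3-OHT 8h (SD, n = 3 each). It fell after 48 h in GCSF (log2 fold change -1.77) and after 8 h in IL3 (-1.43), and rose by a log2 fold change of 1.14 over 168 h of OHT in GCSF. Of the 5 tested genes that remove Polycomb marks 2 were called after 48 h in GCSF, beside 33.7% of all genes. They were *Kdm6b*, which was lower, and *Asxl1*, which was higher (0.60), so the list did not move in a single direction. *Kdm6b* was thus lower in GCSF 0h while *Ezh2* was higher, and the mark itself was not measured. Of the 10 Tet partners 5 were called at 168 h in IL3, beside 25.4% of all genes, with *Cxxc5* (0.96), *Neil1* (0.89) and *Idh2* (0.86) higher. After 48 h in GCSF 4 were called, 2 higher and 2 lower, beside 33.7% of all genes, with *Idh2*, which makes the cosubstrate of the Tet enzymes, higher (0.91) and *Neil2*, a glycosylase, lower (-1.38).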

How the data were processed

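The values are normalized gene counts, a signal per gene that the authors made by quantifying RNA-seq reads with Salmon against GRCm38 and scaling with DESeq2 size factors, and deposited as 1 table of 36255 genes. How transcripts were summed to genes is not given in the sources used here. Dividing each library by the worth of 1 read gave whole reads for 100% of nonzero values (relative tolerance 1e-09).

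Groups followed the labels. The main test was limma 3.58.1 in R 4.3.3 (lmFit and eBayes with trend, which gave 8.12 prior degrees of freedom) on the log2 scale after adding 1 to each normalized count, with 1 mean per group, without IL3-OHT 96h and 144h, on the 17414 genes with at least 5 in at least 1 library. Fold changes on this scale understate those of low genes. P-values were adjusted by Benjamini-Hochberg over all genes tested, and a gene was called at an adjusted p under 0.05 and a log2 fold change over 0.58 in size. Time courses used the moderated F test with the largest departure from the start. The comparison of IL3-OHT 96h and 144h with 88h, 104h, 136h and 152h was fitted on all 165 libraries and 17439 genes. Recovered reads were tested with edgeR 4.0.16 (quasi-likelihood) and DESeq2 1.42.0 as alternatives. On simulated counts limma recovered 198 of 200 genes changed by 1 on the log2 scale in the IL3 endpoint. Beside these 198 there were 33 false calls among 17414 genes, a share of the calls above the threshold of 0.05. All genes were simulated with the same dispersion and only well-counted genes were changed, so this does not speak for genes as low as *Tet1*. Counts of replicates differed by more than sampling noise in all 162 pairs (chi-square per gene 2.25 to 68.5).

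The 10 genes and all lists were chosen with earlier results of these data known. The pathway genes named are up to 3 called genes per list and comparison with the largest change. *Mki67*, *Pcna*, *Mcm7*, *Mcm2*, *Mcm5* and *Tyms*, named for the first 8 h of OHT in IL3, are an exception and were not called there. Likeness is Pearson's r over the means of 54 groups, among genes with a mean of at least 100. Alternatives were other pseudocounts, filters and scaling, a block for the replicate number, 2-group fits, leaving out each replicate or the 120h libraries, which carry another name prefix, and edgeR and DESeq2. The alternatives without GCSF-OHT 104h replicate 3 and with all-exon length were chosen after seeing the data. Sequences are from RefSeq (GRCm38.p6) and positions of genes from GENCODE for GRCm38.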

Additional observations from a re-analysis of the deposited data

Results flagged for a closer look

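The change with OHT differed between IL3 and GCSF for 5 gene and time combinations by the interaction term of limma. At 8 h it was lower in GCSF for *Dnmt1* by a log2 difference of -0.99, with 2905 to 3124 normalized counts in IL3 against 1761 to 1848 at the start and 5182 to 5546 in GCSF against 5991 to 6717. At 8 h it was lower in GCSF for *Dnmt3b* (-1.24), which had 128.5 to 161.0 in IL3 against 69.6 to 87.7 at the start and 65.5 to 73.5 in GCSF against 81.1 to 92.96. It was higher in GCSF for *Tet2* (0.61), which had 1136 to 1255 in IL3 against 1234 to 1392 and 1165 to 1403 in GCSF against 829 to 996. At 168 h it was lower in GCSF for *Ezh2* (-0.65), with 938 to 951 in IL3 against 665 to 801 and 1300 to 1573 in GCSF against 1632 to 1769. For *Eed* it was higher in GCSF (0.70), with 1137 to 1202 in IL3 against 1120 to 1143 and 1833 to 1949 in GCSF against 1097 to 1147. The starting cells of the 2 arms differ in cytokine, and the arms in OHT dose, so what the differences follow cannot be told apart.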

How the results depend on the processing

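Of 38 member values called, 33 kept their call and direction under every alternative run. The other 5 were *Dnmt3b* from 8 h to 12 h in IL3 and *Tet1* in both late phases and both time courses. The count of members called from 8 h to 12 h in IL3 was 0 to 1 when 1 replicate was left out. In the GCSF late phase it was 0 with a pseudocount of 5 and 0 when genes needed a mean of at least 10, where *Tet1* was not tested. For IL3-OHT 96h and 144h it was 2 with edgeR and 2 with DESeq2, which added *Tet2* (-0.58). With edgeR it was 9 over the IL3 course, which added *Ezh1* (0.59), and 5 over the GCSF course, without *Tet1* (adjusted p = 0.0508). The largest departure of *Tet1* over the IL3 course turned to 0.67 with a pseudocount of 5 and ran from -2.22 to 1.23 when 1 replicate was left out. Without replicate 3 *Suz12* passed the threshold in the GCSF pre-treatment (0.58). The fit with the replicate number as a block changed no call of a member: the count in the GCSF pre-treatment, for example, stayed at 2 under the block. The replicate numbers did not pair the libraries, since deviations of same-numbered libraries had r from -0.0802 to 0.0457 in 24 pairs and 8 of the 24 were closest to their own number. Without GCSF-OHT 104h replicate 3 the members called stayed at 1 in the GCSF late phase, 2 between the cytokines and 6 over the GCSF course.

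Over all genes, calls in the GCSF late phase went from 2093 to 1195 with a pseudocount of 5 and to 1274 with the mean filter. From 8 h to 12 h in GCSF they went from 465 to 252 without replicate 2 and to 160 in a fit of only the 2 groups, where 70.0% of calls were higher instead of 84.1%. The cause was not tested in either case. Among the member values never called, 24 changed sign under some alternative, with a largest size of 0.59. The depth limits *Tet1* most and *Dnmt3b* next, whose fewest reads in a library were 0 and 17. The floor of 3 reads covers counting error only.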
